A study of Azumapecten farreri with 9 samples.

Results

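Hemocytes, the circulating cells of molluscs, were sequenced in the Zhikong scallop (Chlamys farreri in the series title, Azumapecten farreri in the organism label), and the 3 libraries titled LPS_T were set against the 3 libraries titled PBS. Members were chosen by title, which gave 6 of the 9 libraries of the series; the other 3 are titled NOR_T and come from exosome-injected scallops too. The LPS_T libraries come from hemocytes of scallops injected with exosomes, and the PBS libraries from scallops injected with PBS, the saline vehicle. Which exosomes the LPS_T animals received cannot be told from the labels. The titles point to exosomes released under lipopolysaccharide (LPS), a bacterial cell wall component, but the group label of the same libraries names normal exosomes, and the NOR_T libraries carry the opposite pair. The group is therefore called by its title only, and no change is tied to LPS. Dose, time after injection, age, the source of the exosomes and the number of animals per library are not given in the labels used here. Whether each library stands for other animals is not stated, and p-values cover just the variation among the libraries, which may be technical. The libraries are bulk RNA, in which RNA per cell and the makeup of the cells sampled cannot be told apart.

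Molluscs have no antibodies or lymphocytes, and hemocytes carry much of their defence: they adhere, engulf particles, release enzymes and antimicrobial proteins, and seal wounds. Exosomes are small vesicles that form inside endosomes, are released when these fuse with the cell surface, and can pass protein and RNA to other cells. Recipient cells take such vesicles up largely through the endosomal and lysosomal route.

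Summed estimated counts ran from 19894628 in PBS 1 to 45831950 in PBS 3. PBS 1 held about 5235000 sequenced fragments and the other 5 libraries between 10428000 and 11647000. In PBS 1, 17.8% of counts fell on 2 genes of scaffold38697. Spearman correlations over tested genes were 0.986 to 0.987 among the LPS_T libraries, 0.973 to 0.987 among the PBS libraries and 0.940 to 0.957 between them. Of 21617 genes, 11678 passed a filter of at least 1 FPKM (fragments scaled to gene length and library depth, as deposited) in at least 3 of the 9 libraries. Differences between groups are given on CPM, counts scaled to a common library total with TMM factors, and levels of different genes are compared on FPKM, which accounts for length. A gene was called when its Benjamini-Hochberg adjusted p in edgeR's quasi-likelihood test was under 0.05, and "rose" or "fell" is written only of called genes. Every log2 change is LPS_T minus PBS unless stated, and its approximate standard error (SE) follows from the change and the F statistic of the test.

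Among all tested genes 3855 were called (33.0%), of which 2085 were higher (17.9%) and 1770 lower (15.2%) in LPS_T. At least 2-fold changes were seen in 625 higher (5.35%) and 403 lower genes (3.45%). The CPM values of the LPS_T and PBS libraries did not overlap in 5299 genes (45.4%), with LPS_T above in 2882 (24.7%) and below in 2417 (20.7%). At an unadjusted p under 0.05 there were 4926 genes (42.2%). The median change over all tested genes was 0.03. Scaling by library size alone moved that median by 0.10, and the deposited FPKM with a pseudocount of 1 moved it by 0.14. With those scalings 69.4% and 76.3% of the calls were higher in LPS_T, against 54.1% with TMM, so small changes of abundant genes depend on the scaling. PBS 1, with 17.8% of counts on 2 genes, had a TMM factor of 0.810, against 0.989 to 1.065 in the other libraries. Its deposited FPKM summed to 1.04e+06, against 581489 to 597009 in the others. The part of PBS 1 in the dependence on scaling was not tested.

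The balance of higher and lower genes depended on level. Of 666 abundant genes, with a mean FPKM of at least 100 over the 6 libraries, 146 (21.9%) rose and 267 (40.1%) fell, with a median change of -0.10. Of 3128 mid-level genes, at 10 to 100 FPKM, 728 rose and 726 fell. Of 7204 low genes, at 1 to 10 FPKM, 1129 (15.7%) rose and 736 (10.2%) fell. Calls among abundant genes were small: the median was 0.43 for those that rose and -0.33 for those that fell, and 21 and 27 of them reached a factor of 2. Among low genes the medians were 0.86 and -0.77. The median SE was 0.06 in abundant, 0.10 in mid-level and 0.23 in low genes. Genes called higher had a median gene span of 13.6 kb, against 9.23 kb for those called lower and 9.27 kb for those not called.

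**Figure D1:**
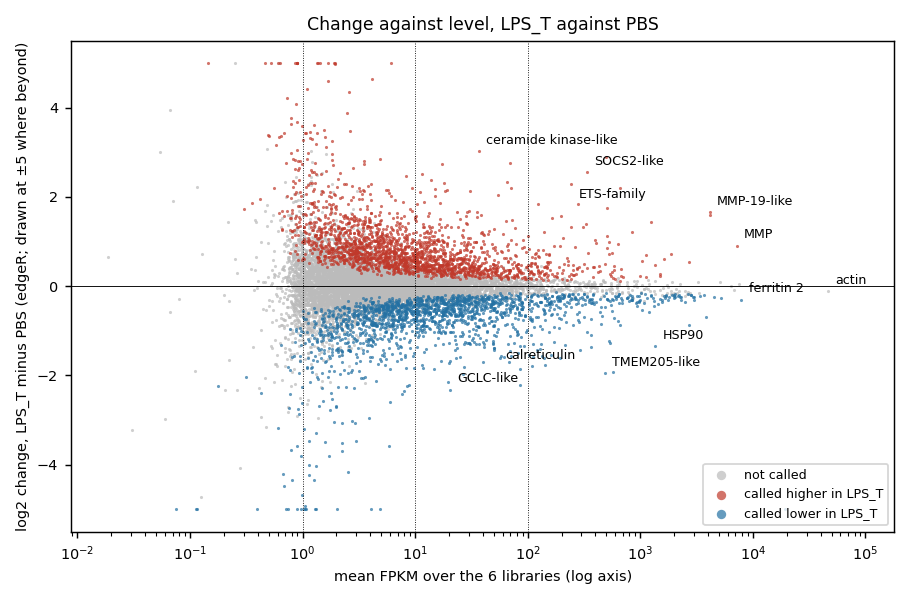
Change of each of the 11678 tested genes in LPS_T against PBS (log2, vertical axis) against its mean FPKM over the 6 libraries (log axis); red points were called higher and blue points lower in LPS_T, and dotted lines mark the level bands at 1, 10 and 100 FPKM. Above 100 FPKM 146 genes rose and 267 fell, most by small amounts, while a few such as SOCS2-like and HSP90 stand clear of the rest.

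The 20 most abundant named genes included structural, iron-storing and translational genes. Actin (ID evm.TU.scaffold22095.12) had 46404 FPKM; its change of -0.11 (SE 0.07) did not pass (adjusted p = 0.22). Elongation factor 1-alpha (ID evm.TU.scaffold14045.2), which brings charged tRNA to the ribosome, had 6830.5 FPKM and a change of -0.09 (adjusted p = 0.24). A metalloproteinase inhibitor of the TIMP family (ID evm.TU.scaffold53827.44) had 7523 FPKM and a change of 0.05 (adjusted p = 0.64). None of these 3 changes passed the test. Ferritin 2 (ID evm.TU.scaffold63483.24), an iron store, stood at 7909.8 FPKM and fell, with 7846, 7945 and 7886 CPM in LPS_T and 10665, 9305 and 9179 CPM in PBS, a change of -0.30 (adjusted p = 0.00157). Actophorin-like (ID evm.TU.scaffold64857.15), which severs actin filaments, fell by a similar amount (-0.25), as did translationally controlled tumor protein (ID evm.TU.scaffold15869.8, -0.24), allograft inflammatory factor-1-like protein (ID evm.TU.scaffold43873.44, -0.21), a calcium-binding protein of blood cells, and profilin-like (ID evm.TU.scaffold41425.25, -0.31). These 5 calls are lost when counts are scaled by library size alone or when the deposited FPKM are tested.

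Among these 20 genes, matrix metalloproteinases, which cut extracellular matrix proteins, were the ones that rose. Matrix metalloproteinase (ID evm.TU.scaffold61119.5), at 7182 FPKM, had 21699.8, 23413 and 20738 CPM in LPS_T and 13181, 10525 and 11396 CPM in PBS. Every LPS_T library lay above every PBS library (change 0.91, SE 0.08, adjusted p = 2.10e-07). Nearby genes for matrix metalloproteinase-19-like on scaffold28041 rose further. The first of them (ID evm.TU.scaffold28041.4, positions 24318 to 25339 of its scaffold, minus strand) had 2900.3, 2925 and 2738 CPM in LPS_T against 872, 919 and 923 CPM in PBS (1.66, SE 0.06). The other (ID evm.TU.scaffold28041.2) changed by 1.61 (SE 0.07); genes of the same description may share reads. Zinc metalloproteinase nas-14-like (ID evm.TU.scaffold50417.8), an astacin, and matrix metalloproteinase-14-like (ID evm.TU.scaffold33565.107), a membrane-bound form, rose by 0.73 and 0.57. In all, 9 of 19 tested metalloproteinases rose and 3 fell, with a median of 0.08. Their summed level was 39193 to 43273 CPM in LPS_T and 19207 to 21753 CPM in PBS. Most of this sum came from evm.TU.scaffold61119.5, evm.TU.scaffold28041.2 and evm.TU.scaffold28041.4. Their means were 21950, 8136 and 2854 CPM in LPS_T and 11701, 2674 and 905 CPM in PBS. The larger sum thus describes these abundant genes and not the family as a whole.

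Regulators stood among the strongest rises of abundant genes. Suppressor of cytokine signaling 2-like (ID evm.TU.scaffold15767.29), which dampens JAK/STAT signalling, had 1518, 1576 and 1476 CPM in LPS_T and 282, 249 and 249.7 CPM in PBS (2.55, SE 0.06, adjusted p = 1.95e-13). An ETS-family transcription factor (ID evm.TU.scaffold38105.4) had 1354, 1441 and 1313 CPM in LPS_T and 286, 274 and 277 CPM in PBS (2.30, SE 0.06). In both genes the lowest LPS_T library lay above the highest PBS library. The largest changes per level band were named only among called genes without overlap, so that separation was fixed by the choice. A growth arrest and DNA damage-inducible protein of the GADD45 family (ID evm.TU.scaffold14907.9) rose by 1.83, and neighbouring members of that family on scaffold14907, chosen after their values were seen, rose by 0.77 (ID evm.TU.scaffold14907.10) and 0.68 (ID evm.TU.scaffold14907.12). Neuropeptide S receptor-like (ID evm.TU.scaffold9805.18), a G protein-coupled receptor with 509 FPKM, had 3135, 3226 and 2949.6 CPM in LPS_T and 919, 914 and 929 CPM in PBS (1.75, SE 0.06). Vitamin D(3) 25-hydroxylase-like (ID evm.TU.scaffold61067.1), a cytochrome P450 enzyme, rose by 1.84 (SE 0.07). The largest fitted rise among abundant genes was a profilin-like gene (ID evm.TU.scaffold722977.1), with 1624, 1059 and 1419 CPM in LPS_T and 112, 109.6 and 329 CPM in PBS. The PBS libraries differ widely there: the change was 2.89 (SE 0.57), and 3.63 without PBS 3.

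Large falls were also seen in abundant genes. TMEM205-like (ID evm.TU.scaffold8291.4) had 328, 329 and 311 CPM in LPS_T and 1330.1, 1189 and 1205 CPM in PBS (-1.94, SE 0.06). Very low-density lipoprotein receptor-like (ID evm.TU.scaffold4213.5) had 302, 312 and 291 CPM in LPS_T and 1224, 1126 and 1081 CPM in PBS (-1.92, SE 0.07). The groups did not overlap in either, which the naming rule required. Another gene with that receptor's description (ID evm.TU.scaffold11157.35) rose by 0.55 (SE 0.05), so genes named alike moved in opposite directions. Laccase-3-like (ID evm.TU.scaffold63699.20), a copper enzyme that oxidises phenols, had 1650.4, 1722 and 1639 CPM in LPS_T and 2915, 3028 and 3182 CPM in PBS (-0.86, SE 0.06). Collagen alpha-1(II) chain-like (ID evm.TU.scaffold57527.24), at 2704 FPKM, rose by 0.54 (SE 0.05).

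**Figure D2:**
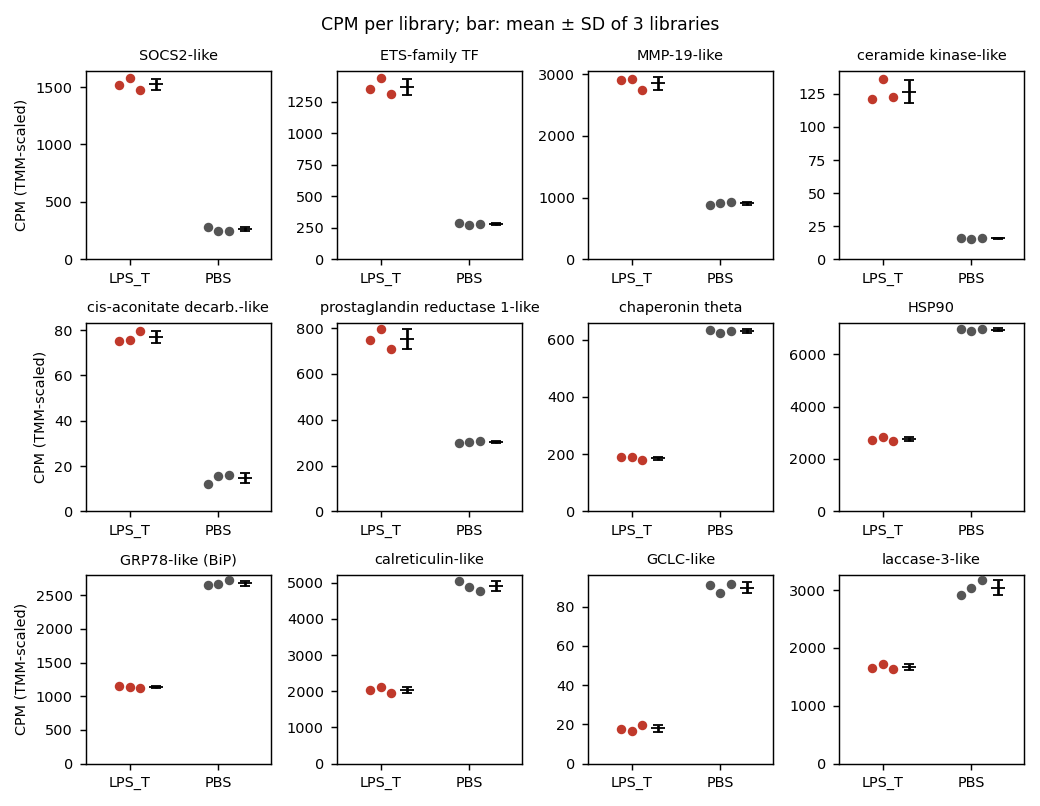
TMM-scaled CPM of 12 genes in each LPS_T library (red) and each PBS library (grey), with the mean ± SD of 3 libraries beside the points; every axis starts at 0. The LPS_T points lie above all PBS points in the first 6 genes (SOCS2-like to prostaglandin reductase 1-like). In the last 6 (chaperonin theta to laccase-3-like) they lie below all of them. Genes named as the largest changes of a level band were chosen for this lack of overlap.

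At mid level, enzymes of lipids, acyl-CoA and amino acid derivatives were among the largest rises. Ceramide kinase-like (ID evm.TU.scaffold63651.9), which phosphorylates the membrane lipid ceramide, had 121, 137 and 122.6 CPM in LPS_T and 15.9, 15.4 and 15.7 CPM in PBS (3.02, SE 0.10, adjusted p = 2.76e-12). Malonyl-CoA decarboxylase (ID evm.TU.scaffold64559.56), which removes the inhibitor of mitochondrial fatty acid import, rose by 2.76 (SE 0.08), and acyl-CoA synthetase family member 2 (ID evm.TU.scaffold46905.16) by 2.21 (SE 0.06). Cis-aconitate decarboxylase-like (ID evm.TU.scaffold64667.1), whose mammalian counterpart makes itaconate in activated macrophages, had 75.2, 75.7 and 79.8 CPM in LPS_T and 11.96, 15.8 and 16.3 CPM in PBS (2.37, SE 0.14). Groups that do not overlap were a condition for naming each of these genes. Carnosine synthase 1-like (ID evm.TU.scaffold14657.15) rose by 2.16 (SE 0.10). A gene described as the mitochondrial ATP synthase 6 (ID evm.TU.scaffold716305.1) had 3.38, 8.11 and 5.96 CPM in LPS_T and 0, 1.81 and 0.898 CPM in PBS. Its change of 2.51 (SE 0.53) became 3.31 without PBS 2.

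Among the largest mid-level falls were genes for glutathione synthesis, a DNA-bending protein and octopamine synthesis. The catalytic subunit of glutamate-cysteine ligase (ID evm.TU.scaffold37191.48), the first step of glutathione synthesis, had 17.7, 16.5 and 19.8 CPM in LPS_T and 90.9, 86.7 and 91.5 CPM in PBS (-2.32, SE 0.09, adjusted p = 2.02e-11). High mobility group-T protein-like (ID evm.TU.scaffold32959.6), a DNA-bending protein, had 18.2, 17.6 and 21.2 CPM in LPS_T and 86.2, 92.4 and 83.5 CPM in PBS (-2.20, SE 0.12). Tyramine beta-hydroxylase (ID evm.TU.scaffold726643.1), which makes octopamine in invertebrates, changed by -1.85 (SE 0.23). All 3 genes had their highest LPS_T value under the lowest PBS value, which the naming rule required. Endoplasmic reticulum resident protein 29-like (ID evm.TU.scaffold55423.10), tomoregulin-2-like (ID evm.TU.scaffold58023.6), glycine-rich RNA-binding protein GRP2A-like (ID evm.TU.scaffold16535.84) and an arylsulfatase B-like gene (ID evm.TU.scaffold726047.1) changed by -1.71, -1.70, -1.69 and -1.68.

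Low genes reached larger fold changes with wider errors. Beta-1,3-galactosyltransferase 5-like (ID evm.TU.scaffold57483.17), which extends sugar chains, had 4.29, 3.97 and 5.80 CPM in LPS_T and 0, 0 and 0.171 CPM in PBS (5.95, SE 0.82); the change was 5.28 without PBS 2 and 10.44 without PBS 3. Multiple inositol polyphosphate phosphatase 1-like (ID evm.TU.scaffold28029.4) had 9.19, 9.15 and 9.78 CPM in LPS_T and 0.934, 0.939 and 0.171 CPM in PBS (3.87, SE 0.46). Among falls, protein MB21D2-like (ID evm.TU.scaffold47499.11), a relative of the DNA sensor cGAS, had 0.821, 0.709 and 0.367 CPM in LPS_T and 7.91, 8.81 and 5.24 CPM in PBS (-3.52, SE 0.32). The groups were apart in all 3 genes, as the naming rule for this band required. The galactosyltransferase and phosphatase genes had mean PBS levels of 0.037 and 0.288 FPKM, under the filter of 1 FPKM. They passed it through the LPS_T libraries, so their contrast was partly fixed by the filter. The PBS 3 value of 0.171 CPM in both lies under the level of 3 fragments in that library (0.251 CPM). BTB/POZ domain-containing protein KCTD6 (ID evm.TU.scaffold12539.1) and heme-binding protein 2-like (ID evm.TU.scaffold48295.56) changed by -3.80 (SE 0.50) and -3.48 (SE 0.43).

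Some called genes had no count in any library of a group: 13 genes higher and 9 lower in LPS_T. Such genes passed the FPKM filter only through the other groups, so their contrast was partly fixed by the filter. Set against a floor of 3 fragments in each library (a limit of counting error only), a Caspase-3 gene (ID evm.TU.scaffold61475.3), an executioner protease of cell death, was at least 7.23-fold higher in LPS_T, with 2.46, 3.43 and 3.05 CPM there and none in PBS. Otopetrin-2 (ID evm.TU.scaffold62355.1), a proton channel, was at least 12.3-fold higher and maltase A1-like (ID evm.TU.scaffold64101.5) at least 8.55-fold higher. Without a count in LPS_T, epididymal secretory protein E1 (ID evm.TU.scaffold64243.5), a sterol carrier of the NPC2 type, was at least 8.91-fold lower, with 1.68, 2.79 and 2.72 CPM in PBS. A Cyp3A gene (ID evm.TU.scaffold57941.6), a cytochrome P450, was at least 17.3-fold lower. The genes given here were picked from those with larger bounds. Other bounds fell under 1 and give no fold. Examples are 0.676 for CWF19-like protein 2 (ID evm.TU.scaffold704517.1, higher) and 0.508 for neuropeptides capa receptor-like (ID evm.TU.scaffold52289.2, lower).

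Genes are described from here on by lists matched to gene descriptions. The counts of each list are to be read against the shares over all tested genes, 17.9% higher and 15.2% lower. In 12 lists the larger of the higher and lower counts changed side with library size scaling, on log2(FPKM + 1) or with both, always toward higher. These were the lists of immediate response factors, Toll pathway, interferon-type genes, TRIM proteins, antimicrobial and iron storage genes, antioxidant genes, eicosanoid genes, G protein-coupled receptors, solute carriers, glycosyltransferases, ribosome biogenesis and spliceosome, so no direction is drawn for them. With TMM scaling and PBS 1 left out, the lower count stayed the larger in each of these lists. Ranges given over the alternatives cover other scalings, tests and filters and each library left out. Of 7 tested cytokine, SOCS and STAT genes 3 rose and 0 fell. Beside SOCS2-like these were signal transducers and activators of transcription, the STAT factors that cytokine receptors activate: evm.TU.scaffold32463.6 rose by 0.81 (SE 0.06) and evm.TU.scaffold545.33 by 0.27 (SE 0.07), the second not on deposited FPKM. Of 24 transcription factors of the immediate response 5 rose and 9 fell (median -0.11). A cyclic AMP-dependent transcription factor of the ATF family (ID evm.TU.scaffold17725.37) rose by 2.48 (SE 0.27), while Krueppel-like factor 3 (ID evm.TU.scaffold57011.109) changed by -0.61 (SE 0.07). Transcription factor AP-1-like (ID evm.TU.scaffold59345.8), a Jun-type factor at 2481 FPKM and chosen after its values were seen, had 1963, 2102 and 2034 CPM in LPS_T and 2663, 2514 and 2627 CPM in PBS; its change of -0.36 was lost with library size scaling and on deposited FPKM.

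In the Toll, MyD88 and NF-kappa-B pathway, which senses microbial products, 4 of 20 genes rose and 6 fell (median -0.05). Toll-like receptor 4 (ID evm.TU.scaffold48779.8), named for the mammalian LPS receptor, had 70.0, 72.2 and 75.9 CPM in LPS_T and 45.8, 55.4 and 50.5 CPM in PBS (0.52, SE 0.08). NF-kappa-B inhibitor alpha-like (ID evm.TU.scaffold55943.18), which holds the factor in the cytoplasm, had 18.2, 18.1 and 16.2 CPM in LPS_T and 31.3, 36.2 and 28.9 CPM in PBS (-0.88, SE 0.12), and TNF receptor-associated factor 3-like (ID evm.TU.scaffold64573.12), an adaptor, changed by -1.36 (SE 0.11). The receptor was higher, and the inhibitor and the adaptor lower, in each LPS_T library than in any PBS library. These members were named for the smallest p in the list, so that separation was largely fixed by the choice. Among all tested genes 45.4% did not overlap. Of 38 MAP kinases and dual specificity phosphatases 8 rose and 2 fell (median 0.15); those that fell were MAP kinase-interacting kinase (ID evm.TU.scaffold57527.37, -0.77) and dual specificity phosphatase 10-like (ID evm.TU.scaffold41971.22, -0.52, lost on deposited FPKM).

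Cell death genes rose more often than they fell, while the count for inhibitors of apoptosis depended on scaling. Of 39 tested TNF receptors, caspases and Bcl-2 proteins 13 rose and 1 fell, with a median of 0.26 and 9 to 16 rises and 0 to 2 falls over the alternatives. Bcl-2 protein (ID evm.TU.scaffold61259.35), of the family that governs mitochondrial permeability, was abundant at 672 FPKM and rose by 0.38 (SE 0.04). A tumor necrosis factor receptor superfamily member (ID evm.TU.scaffold63423.48), a death or survival receptor, rose by 1.09 (SE 0.15), and caspase-3-like (ID evm.TU.scaffold25603.9), chosen after its values were seen, had 5.37, 3.62 and 4.996 CPM in LPS_T and 0.249, 1.54 and 1.18 CPM in PBS (2.13, SE 0.41). Of 25 inhibitor of apoptosis (IAP) genes, whose BIR domains bind caspases, 5 rose and 9 fell (median -0.25), but 4 rose and 4 fell on log2(FPKM + 1). Neighbouring genes on scaffold41437 were among those that fell: evm.TU.scaffold41437.8, at 585 FPKM, had 599, 616 and 559 CPM in LPS_T and 1040.1, 953 and 936 CPM in PBS (-0.72, SE 0.06), and evm.TU.scaffold41437.7 changed by -1.40 (SE 0.07). The opposite direction was seen in evm.TU.scaffold62537.1, an IAP gene that rose by 1.72 (SE 0.15).

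Immune effector and recognition genes split. Of 22 interferon-type, STING and RNA-sensing genes 6 rose and 11 fell. Interferon-induced protein 44-like genes were among the rises, with 1.58 (SE 0.15) for evm.TU.scaffold49157.2 and 0.76 (SE 0.10) for evm.TU.scaffold36873.2. Of 30 lectins, C1q and fibrinogen-related proteins, which bind sugars on microbes, 6 rose and 3 fell. Galectin-6 (ID evm.TU.scaffold22817.95) and galectin-9-like (ID evm.TU.scaffold59261.27), which bind galactosides, rose by 1.65 (SE 0.17) and 0.98 (SE 0.14), and fibrinogen-like protein 1 (ID evm.TU.scaffold5387.90_evm.TU.scaffold5387.92) had a change of -1.001 (SE 0.07). Scavenger and phagocytic receptors counted 7 rises and 7 falls of 36, and TRIM ubiquitin ligases 4 and 7 of 32. Tripartite motif-containing 13 (ID evm.TU.scaffold61169.2) changed by -2.05 (SE 0.19) and TRIM62-like (ID evm.TU.scaffold52871.20) rose by 1.38 (SE 0.19). In complement, thioester proteins and protease inhibitors 5 of 18 rose and 2 fell; leukocyte elastase inhibitor-like genes, which are serpins, rose by 0.77 (ID evm.TU.scaffold64243.13) and 0.98 (ID evm.TU.scaffold49439.1). Antimicrobial and iron storage genes had 3 rises and 4 falls of 18, and soma ferritin-like (ID evm.TU.scaffold63483.25), next to ferritin 2 on its scaffold, rose by 0.45 (SE 0.06) where ferritin 2 was lower.

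Protein folding in the cytosol showed a uniform fall in the chaperonin. All 8 tested subunits of the cytosolic chaperonin, the ring complex that folds actin and tubulin, were lower in LPS_T (median -1.56, against 0.03 over all genes), and all were called lower under every alternative tried. Subunit theta (ID evm.TU.scaffold17381.1) had 188, 189 and 179.7 CPM in LPS_T and 635, 623 and 631 CPM in PBS, and subunit zeta (ID evm.TU.scaffold45501.4) had 148, 149 and 129 CPM in LPS_T and 539.8, 470.4 and 475 CPM in PBS. Their changes were -1.76 (SE 0.06) and -1.80 (SE 0.07), and both are among the genes named only where the groups did not overlap. Of 79 heat shock proteins and DnaJ co-chaperones 24 fell and 11 rose, against 12 and 11 on log2(FPKM + 1). HSP90 (ID evm.TU.scaffold41779.13), a chaperone of kinases and receptors, had 2730.1, 2833 and 2686 CPM in LPS_T and 6944, 6897 and 6975 CPM in PBS (-1.34, SE 0.05). Heat shock protein 70 (ID evm.TU.scaffold53111.105), one of the 20 most abundant named genes, had 8325, 8551 and 7777 CPM in LPS_T and 13682, 13152 and 13204 CPM in PBS (-0.70, SE 0.06). Stress-induced-phosphoprotein 1-like (ID evm.TU.scaffold41779.19), which links HSP70 to HSP90, changed by -1.59 (SE 0.05), and the mitochondrial pair of heat shock protein 60 (ID evm.TU.scaffold46503.1, chosen after its values were seen) and its 10 kDa partner (ID evm.TU.scaffold42539.2) by -1.20 and -1.29. Genes of the HSP70 family share long identical stretches, so the split of reads among them is uncertain.

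In the endoplasmic reticulum, where secreted proteins fold, 14 of 18 folding genes fell and 0 rose (median -0.73); over the alternatives the number that fell was between 8 and 14. The 78 kDa glucose-regulated protein (ID evm.TU.scaffold38447.14), the HSP70 of this compartment, had 1148, 1135 and 1125 CPM in LPS_T and 2650.3, 2665 and 2719 CPM in PBS (-1.24, SE 0.06). Calreticulin-like (ID evm.TU.scaffold42613.16), a lectin chaperone that binds calcium, had 2024, 2121 and 1955 CPM in LPS_T and 5059.9, 4883 and 4787 CPM in PBS (-1.27, SE 0.06). Both were clearly lower in all 3 LPS_T libraries. Protein disulfide-isomerase A6-like (ID evm.TU.scaffold13837.3), which forms disulfide bonds, and prolyl 4-hydroxylase subunit alpha-1 (ID evm.TU.scaffold11121.2), which modifies collagen, changed by -1.37 (SE 0.08) and -1.55 (SE 0.06), and calnexin-like (ID evm.TU.scaffold61185.19) and ERO1-like protein alpha (ID evm.TU.scaffold63471.11), chosen after their values were seen, by -1.43 and -2.06. Summed over the list, the level was 6982 to 7529 CPM in LPS_T and 12784 to 13249 CPM in PBS. Of 44 proteasome genes 4 rose (9.09%) and 0 fell, both under the shares over all tested genes (17.9% and 15.2%).

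Translation and RNA processing moved by small amounts across many abundant genes. Of 68 cytosolic ribosomal proteins 46 fell and 0 rose, with a median of -0.23. With library size scaling 3 were lower, and on FPKM with a pseudocount of 1 none was, so the count rests on the scaling. With TMM scaling 45 fell without PBS 1, 27 without LPS_T 1 and 29 without LPS_T 3. 40S ribosomal protein S19 (ID evm.TU.scaffold59391.12) had 879, 916 and 888 CPM in LPS_T and 1193, 1114 and 1142 CPM in PBS (-0.36, SE 0.06). Of 61 translation factors 24 fell (median -0.19), and 23 without PBS 1. With library size scaling 5 fell, and 2 on FPKM with a pseudocount of 1. Eukaryotic translation initiation factor 6 (ID evm.TU.scaffold36483.63), which acts in the joining of ribosomal subunits, was among the 24 (-0.77, SE 0.10). Of 84 spliceosome genes 28 fell and 7 rose, and 30 fell and 7 rose without PBS 1. With library size scaling 10 fell, while 3 fell and 4 rose on FPKM with a pseudocount of 1. Serine/arginine-rich splicing factor 10-like (ID evm.TU.scaffold61253.60) changed by -1.08 (SE 0.07). Of 62 ribosome biogenesis genes 11 fell and 5 rose, against 3 and 5 on that FPKM scale. Of 39 aminoacyl-tRNA synthetases 11 fell (3 to 13 over the alternatives), but the most abundant of those named moved the other way. Tryptophan-tRNA ligase (ID evm.TU.scaffold20655.4), at 631 FPKM, had 1661, 1784 and 1638 CPM in LPS_T and 925, 855 and 854 CPM in PBS (0.95, SE 0.06).

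Antioxidant and oxidation enzymes moved both ways. Of 58 glutathione, thioredoxin and antioxidant genes 12 rose and 16 fell. Omega class glutathione S-transferase (ID evm.TU.scaffold1989.72), which conjugates or reduces with glutathione, had 100.7, 104.7 and 99.0 CPM in LPS_T and 225, 198 and 189.7 CPM in PBS (-1.01, SE 0.07), whereas Peroxiredoxin-2 (ID evm.TU.scaffold64279.66), which removes hydrogen peroxide, had 171, 169 and 172 CPM in LPS_T and 98.2, 91.3 and 88.4 CPM in PBS (0.88, SE 0.06). Of 53 cytochrome P450 genes 12 rose and 12 fell. Cytochrome P450 27C1-like (ID evm.TU.scaffold55147.16) rose by 2.10 (SE 0.14). Genes described as cytochrome P450 2B11 on scaffold40865 fell together, with -0.97 for evm.TU.scaffold40865.8, -1.76 for evm.TU.scaffold40865.7 and, chosen after its values were seen, -1.83 for evm.TU.scaffold40865.10; near copies in a cluster can share reads.

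In metabolism, the share of fatty acid genes that rose was near that over all tested genes (17.9%). Of 90 fatty acid and acyl-CoA genes 18 rose and 9 fell (median 0.09). Probable acyl-CoA dehydrogenase 6 (ID evm.TU.scaffold26649.14), an oxidation enzyme, rose by 1.26 (SE 0.09) and long-chain fatty acid-CoA ligase 1-like (ID evm.TU.scaffold16535.22), which activates fatty acids, by 1.40 (SE 0.12). Hexokinase type 2-like (ID evm.TU.scaffold31741.5), the first step of glycolysis, had 91.9, 101.1 and 102 CPM in LPS_T and 138, 173 and 145 CPM in PBS (-0.63, SE 0.08; lost on deposited FPKM), and hexokinase-1-like (ID evm.TU.scaffold61253.17) changed by -0.94. A facilitated glucose transporter of solute carrier family 2 (ID evm.TU.scaffold12119.20) had 207, 170.5 and 228 CPM in LPS_T and 499, 435 and 470.4 CPM in PBS (-1.21, SE 0.08), and sodium-dependent glucose transporter 1-like (ID evm.TU.scaffold64633.31) changed by -1.02. These 4 genes, which form no list, were lower in LPS_T without overlap, as were 20.7% of all tested genes. They were picked from genes named for their small p, so that separation follows largely from the choice. Glycolysis and the tricarboxylic acid cycle as a list had 7 rises and 5 falls of 39, and solute carriers 22 and 25 of 146. Of 46 respiratory chain genes 3 rose (6.52%) and 1 fell (2.17%), both under the shares over all tested genes (17.9% and 15.2%). Among eicosanoid and phospholipid genes 3 of 29 rose and 5 fell. Prostaglandin reductase 1-like (ID evm.TU.scaffold58209.5), which inactivates eicosanoids, had 749.5, 798 and 709 CPM in LPS_T and 300.0, 301 and 306 CPM in PBS (1.32, SE 0.06). Prostaglandin E synthase 3-like (ID evm.TU.scaffold56639.28), known also as p23, an HSP90 co-chaperone, changed by -1.32 (SE 0.08), and arachidonate 5-lipoxygenase-like (ID evm.TU.scaffold8265.3) by -0.62 (lost on deposited FPKM).

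Genes of vesicle uptake and transport, which bear on how cells handle exosomes, showed no single direction. Rises made up 15.2% of Rab genes and regulators and 21.8% of SNAREs and coat proteins, near the 17.9% over all tested genes. Falls made up 7.58% and 3.64% of these lists, against 15.2% over all tested genes. Of 62 ESCRT, tetraspanin and annexin genes 18 rose and 7 fell; 11 rose without LPS_T 2, and 4 fell without LPS_T 3 or without PBS 3. Tetraspanin-18-like (ID evm.TU.scaffold56263.3) rose by 1.19 (SE 0.09), and vacuolar protein sorting-associated gene evm.TU.scaffold64379.3 by 0.63. CD63 antigen-like (ID evm.TU.scaffold40683.16), a tetraspanin of late endosomes and a common exosome marker in vertebrates, was abundant at 1327 FPKM and had 2699, 2739 and 2578 CPM in LPS_T and 3705, 3638 and 3516 CPM in PBS (-0.44, SE 0.06; lost on deposited FPKM). Rab GTPases and regulators had 10 rises and 5 falls of 66, but 6 and 6 without PBS 1; Rab-7a (ID evm.TU.scaffold63699.53), of the late endosome, changed by -0.56 (SE 0.05; lost on deposited FPKM), and Rab-18-B-like (ID evm.TU.scaffold61329.46), with 0.985, 1.28 and 1.76 CPM in LPS_T and 11.2, 11.1 and 10.3 CPM in PBS, by -3.01 (SE 0.29). Of 71 lysosomal hydrolases and proton pump genes 6 rose and 21 fell, and 11 fell with library size scaling and 8 on log2(FPKM + 1). Cathepsin D (ID evm.TU.scaffold57483.26), a protease, changed by -0.76 (SE 0.08) and an arylsulfatase B-like gene (ID evm.TU.scaffold32013.4) by -1.61 (SE 0.11). Of 55 SNAREs and coat proteins 12 rose and 2 fell, but 6 and 4 without PBS 1, and 6 rose without LPS_T 1, without LPS_T 2 or without NOR_T 3. Autophagy and TOR genes had 6 rises and 5 falls of 27, the falls ranging from 0 to 6 over the alternatives. Sestrin-1-like (ID evm.TU.scaffold64559.39), a stress-responsive inhibitor of TORC1 in mammals, had 1628, 1559 and 1622 CPM in LPS_T and 903, 834 and 847 CPM in PBS (0.90, SE 0.05).

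In the cytoskeleton, many genes of actins and actin regulators rose, but their summed level overlapped between the groups. It was 94857 to 106033 CPM in LPS_T and 96710 to 114038 CPM in PBS. Most of it came from the abundant actin gene (ID evm.TU.scaffold22095.12), which was not called. Of 55 actins and actin regulators 25 rose and 2 fell, with a median of 0.19. Actin-2 (ID evm.TU.scaffold14907.6) had 142, 156 and 142 CPM in LPS_T and 70.8, 54.0 and 54.0 CPM in PBS (1.31, SE 0.09), and the bundling protein plastin-3-like (ID evm.TU.scaffold64141.1) rose by 0.74 (SE 0.07). A profilin-like gene on scaffold41425 (ID evm.TU.scaffold41425.24) rose by 1.04, while its far more abundant neighbour changed by -0.31 (ID evm.TU.scaffold41425.25). Of 24 tubulins 3 rose and 8 fell, against 3 and 4 on log2(FPKM + 1). Tubulin alpha-1A chain-like (ID evm.TU.scaffold8357.25) changed by -0.91 (SE 0.10), and the alpha chain described as testis-specific (ID evm.TU.scaffold64139.6), at 566 FPKM, rose by 0.73 (SE 0.07). Integrins, cadherins and matrix genes had 13 rises (18.1%) and 8 falls (11.1%) of 72, near the shares over all tested genes (17.9% and 15.2%). Hemicentin-1 (ID evm.TU.scaffold62173.21), a matrix protein, changed by -0.84 (SE 0.06).

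At the membrane, the balance of receptor genes depended on scaling. Of 60 G protein-coupled receptors 19 fell and 12 rose (median -0.12), but 10 fell and 14 rose with library size scaling. Their summed level was 10229.8 to 11100.2 CPM in LPS_T and 8103 to 8543 CPM in PBS, a sum that includes the abundant neuropeptide S receptor-like gene. Orexin receptor type 2-like (ID evm.TU.scaffold16557.17) had 96.0, 102 and 95.9 CPM in LPS_T and 283, 258 and 262 CPM in PBS (-1.45, SE 0.06). Adenosine receptor A3-like (ID evm.TU.scaffold33891.2), 5-hydroxytryptamine receptor-like (ID evm.TU.scaffold57941.27) and octopamine receptor-like (ID evm.TU.scaffold37191.28), chosen after their values were seen, changed by -1.55, -1.12 and -0.71. Ion channels had 8 rises and 6 falls of 53 (0 to 7 falls over the alternatives); a neuronal acetylcholine receptor subunit (ID evm.TU.scaffold27033.1), part of a ligand-gated channel, rose by 1.96 (SE 0.25). Solute carriers had 22 and 25 of 146, ABC transporters 6 and 3 of 23, and glycosyltransferases 13 and 15 of 103.

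In the nucleus, more cell cycle genes rose than fell. Of 98 cell cycle and DNA replication genes 26 rose and 1 fell (median 0.27), and 17 rose on log2(FPKM + 0.1). Among the rises, condensin complex subunit 3-like (ID evm.TU.scaffold5071.6), which compacts chromosomes, had 24.2, 24.9 and 23.6 CPM in LPS_T and 15.7, 15.5 and 14.6 CPM in PBS (0.67, SE 0.10), and DNA topoisomerase 2-alpha-like (ID evm.TU.scaffold20057.4), which untangles them, rose by 0.50 (SE 0.08). The member that fell was cyclin-D2-like (ID evm.TU.scaffold19973.5), a G1 cyclin, with 112, 101.5 and 87.4 CPM in LPS_T and 174, 144 and 159.7 CPM in PBS (-0.66, SE 0.10). Of 51 DNA repair genes 14 rose and 2 fell, and 5 rose among those with a filter of 5 FPKM, which leaves fewer genes to test. The partners Fanconi anemia group I (ID evm.TU.scaffold64507.1) and group D2 (ID evm.TU.scaffold62247.7), which act on crosslinked DNA, rose by 1.56 (SE 0.19) and 0.95 (SE 0.16). Histones and HMG proteins had 2 rises and 3 falls of 14. Chromatin modifiers had 13 rises and 13 falls of 76 (2 to 15 falls over the alternatives); Lysine-specific demethylase 5A (ID evm.TU.scaffold4745.20), which removes methyl groups from histone H3, changed by -0.92 (SE 0.08).

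**Figure D3:**
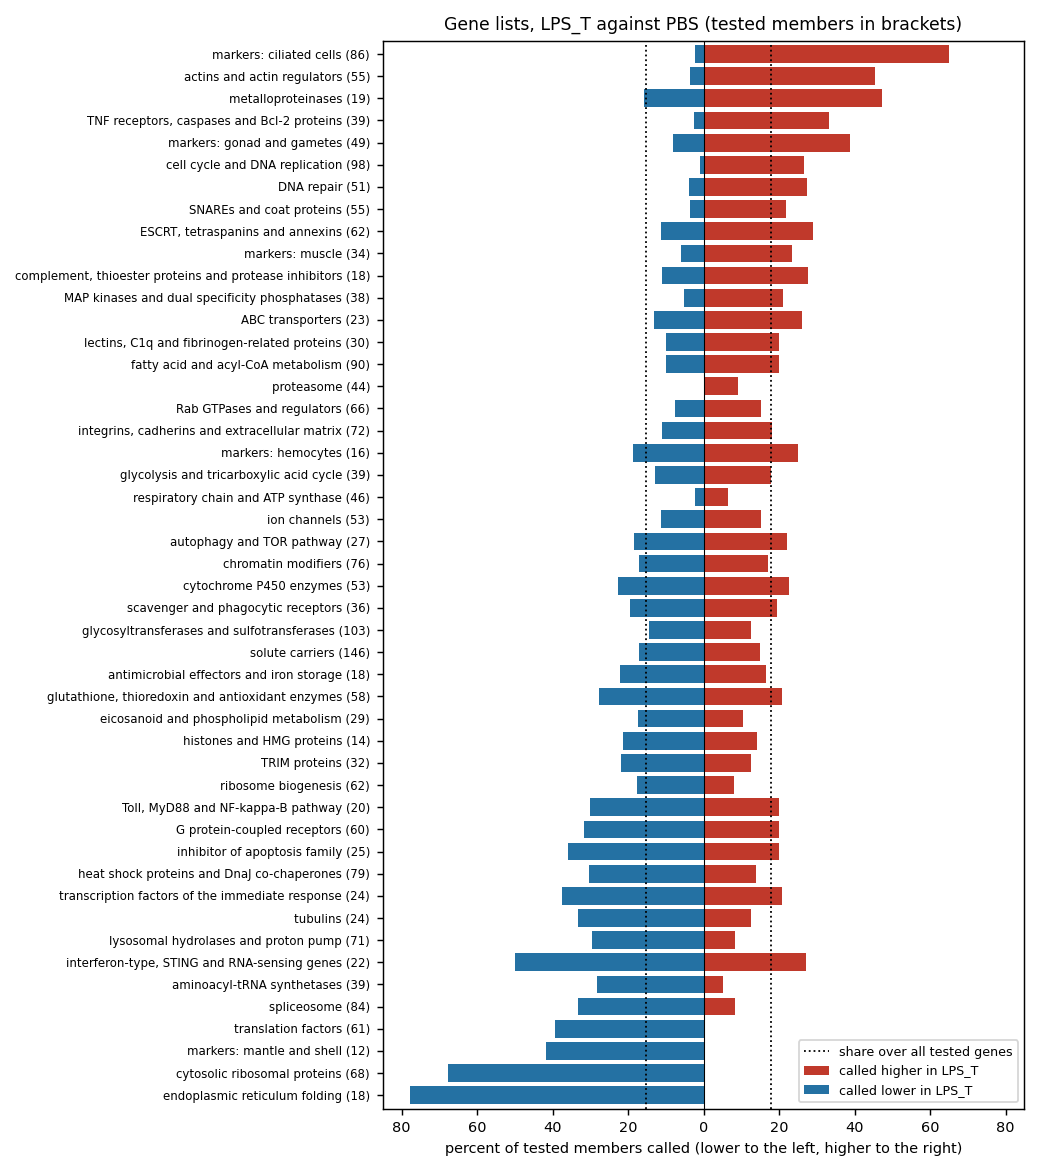
Percent of tested members called higher (red, to the right) or lower (blue, to the left) in LPS_T against PBS for every gene list with at least 10 tested members, whose number stands in brackets; dotted lines mark the shares over all tested genes, 17.9% and 15.2%. Ciliated cell markers (56 of 86) extend furthest toward higher, and endoplasmic reticulum folding (14 of 18) and ribosomal proteins (46 of 68) furthest toward lower.

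Markers of hemocytes and of other tissues were read in the same libraries. Of 27 hemocyte markers 16 were tested, 4 rose and 3 fell (median 0.03), and their summed level was 10627 to 11318 CPM in LPS_T and 11327 to 12021 CPM in PBS; allograft inflammatory factor-1-like protein (ID evm.TU.scaffold43873.44), at 3671 FPKM, was among the 20 most abundant named genes. Markers of ciliated cells, which line gill and other epithelia, rose in the greatest number of any list: 56 of 86 tested genes rose and 2 fell, with a median of 0.70. All 106 matched had a count in the 6 libraries. They were low, with a summed level of 1714 to 1765 CPM in LPS_T, 655 to 679 CPM in NOR_T and 939.9 to 1183 CPM in PBS. Dynein beta chain of the flagellar outer arm (ID evm.TU.scaffold34635.4), a ciliary motor, rose by 1.53 (SE 0.13), CFAP54 (ID evm.TU.scaffold37909.9), of the central pair of the ciliary axoneme, by 1.24 (SE 0.13) and CCDC40 (ID evm.TU.scaffold55215.7), an axonemal ruler protein, by 1.29 (SE 0.14). Gene-centred medians were 0.34 to 0.42 in LPS_T, and -0.60, -0.10 and -0.46 in the PBS libraries, which differed among themselves; without PBS 1, 51 of these markers were called higher, and with a filter of 5 FPKM, which leaves fewer to test, 34 were. Gonad markers had 19 rises and 4 falls of 49 and summed to 2653 to 2886 CPM in LPS_T and 2037 to 2149.6 CPM in PBS; Vitellogenin (ID evm.TU.scaffold25917.13), the egg yolk protein, had 133, 142 and 124 CPM in LPS_T and 41.6, 31.9 and 34.5 CPM in PBS (1.90, SE 0.11). Muscle markers had 8 rises and 2 falls of 34, nerve markers 3 and 0 of 8, and digestive gland markers 2 of the 3 tested from 30 matched. Their summed levels were 9229.6 to 10077 CPM in LPS_T and 8840.1 to 9396 CPM in PBS for muscle, 419 to 426 CPM in LPS_T and 264 to 286 CPM in PBS for nerve, and 9.05 to 10.5 CPM in LPS_T and 2.91 to 4.23 CPM in PBS for digestive gland. Mantle markers had 5 falls and 0 rises of 12 tested from 48 matched, and 10 of the perlucin and carbonic anhydrase genes had no count in the 6 libraries; the sum was 902 to 956 CPM in LPS_T and 1183 to 1319.7 CPM in PBS. The part of such other cells in the changes above, in particular for tubulins, gonad-labelled and cell cycle genes, was not tested.

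**Figure D4:**
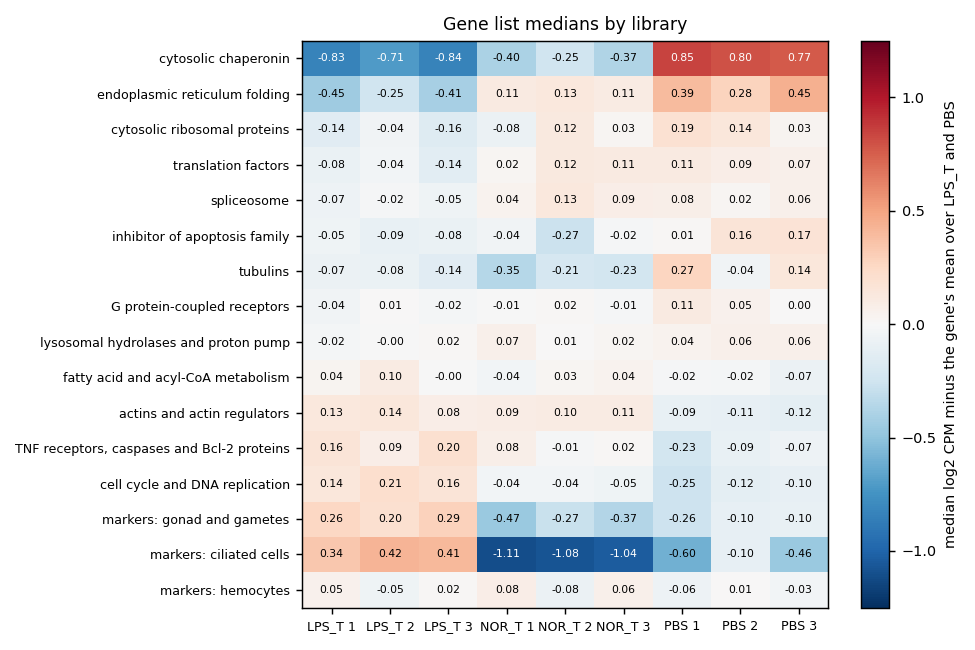
Median over the tested members of each of 16 gene lists of the log2 CPM minus the gene's mean over the LPS_T and PBS libraries, for each LPS_T, NOR_T and PBS library; red is above and blue below that mean, with the value in each cell. Chaperonin medians are -0.84 to -0.71 in LPS_T and 0.77 to 0.85 in PBS, while the ciliated cell markers run from 0.34 to 0.42 in LPS_T, -1.11 to -1.04 in NOR_T and -0.60 to -0.10 in PBS.

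The table's own KEGG and GO annotations gave terms of 10 to 200 tested genes, 125 and 925 of them, whose shares are set against 17.9% higher and 15.2% lower. Terms overlap in their genes, so neighbouring terms are not independent. Among KEGG terms with the highest share of genes lower in LPS_T were Ribosome, with 55 of 111 lower and 3 higher, Protein processing in endoplasmic reticulum, with 44 of 146 lower and 9 higher, and Spliceosome, with 37 of 130 lower and 17 higher. These counts depended on scaling: with library size scaling 5, 25 and 15 genes of these 3 terms were lower, and on log2(FPKM + 1) 0, 15 and 7. Without LPS_T 1 the Ribosome count was 30, and without LPS_T 3 it was 34. In Galactose metabolism 11 of 31 were lower, in Tyrosine metabolism 12 of 38, in Arginine and proline metabolism 14 of 47 and in Neuroactive ligand-receptor interaction 33 of 106, with 20 higher. Over the alternatives these lower counts were 4 to 11, 7 to 13, 7 to 14 and 12 to 34. Tyrosine metabolism held enzymes of amine transmitters, named here after their values were seen: aromatic-L-amino-acid decarboxylase-like (ID evm.TU.scaffold41309.12), which makes dopamine and serotonin, had 50.4, 44.8 and 46.4 CPM in LPS_T and 83.8, 92.3 and 92.4 CPM in PBS (-0.92, SE 0.08), a second tyramine beta-hydroxylase gene (ID evm.TU.scaffold62091.1) changed by -1.93 (SE 0.23), and a flavin-containing monoamine oxidase (ID evm.TU.scaffold50135.42), which degrades such amines, by -1.29 (SE 0.11).

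**Figure D5:**
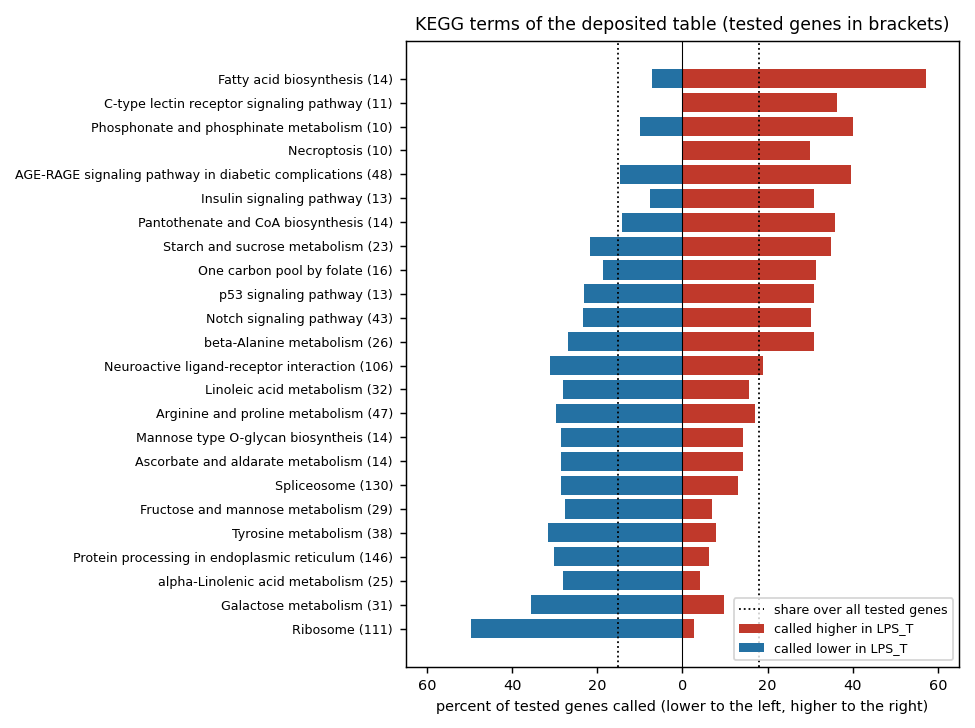
Percent of tested genes called higher (red, to the right) or lower (blue, to the left) in LPS_T against PBS for the 24 KEGG terms with the highest shares each way, with the number of tested genes in brackets and dotted lines at the shares over all tested genes (17.9% and 15.2%). Fatty acid biosynthesis (8 of 14 higher) and Ribosome (55 of 111 lower) lie at the ends.

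KEGG terms with the highest share of higher genes were mostly small, and few genes decide their counts. In Fatty acid biosynthesis 8 of 14 were higher and 1 lower, in AGE-RAGE signaling 19 of 48 and 7, in C-type lectin receptor signaling 4 of 11 and none, in Pantothenate and CoA biosynthesis 5 of 14 and 2, and in Insulin signaling 4 of 13 and 1. Over the alternatives the higher counts were 4 to 9, 10 to 21, 3 to 4, 3 to 5 and 2 to 5 in these terms, with 4 in Fatty acid biosynthesis without LPS_T 2 and 11 in AGE-RAGE signaling without LPS_T 3. One carbon pool by folate had 5 of 16 higher and 3 lower, with a median of -0.01, so the term showed no common direction. The members given next were named after their values were seen and all rose, and no lower member is described. Methylenetetrahydrofolate reductase-like (ID evm.TU.scaffold59725.10), which commits folate to methionine, had 323, 338 and 309.8 CPM in LPS_T and 112, 119.6 and 118 CPM in PBS (1.47, SE 0.06). Serine hydroxymethyltransferase (ID evm.TU.scaffold41405.119), which loads folate from serine, rose by 1.66 (SE 0.09) and methionine synthase-like (ID evm.TU.scaffold63471.14) by 0.99 (SE 0.17). In AGE-RAGE signaling the small GTPase CDC42 (ID evm.TU.scaffold20839.9), which shapes actin, had 179.9, 215 and 185 CPM in LPS_T and 112, 92.7 and 98.9 CPM in PBS (0.94, SE 0.09). Notch signaling had 13 of 43 higher (7 to 13 over the alternatives) and 10 lower; recombining binding protein suppressor of hairless (ID evm.TU.scaffold64623.4), its DNA-binding factor, rose by 1.07 (SE 0.13). Larger terms with a lean were the Phosphatidylinositol signaling system, with 23 of 79 higher and 4 lower, and Endocytosis, with 44 of 189 higher and 16 lower. Phagosome, with 21 of 99 higher and 26 lower, and mTOR signaling, with 19 of 100 higher and 18 lower, were divided.

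Among the GO terms with the highest share of higher genes were terms of cilia: flagellated sperm motility (10 of 14), cilium movement (14 of 21), axoneme assembly (9 of 14) and axoneme (19 of 36), in which 0, 1, 1 and 0 genes were lower. Over the alternatives 6 to 10, 8 to 15, 6 to 9 and 12 to 20 genes of these terms were higher. Nucleoside diphosphate kinase activity (6 of 11) held nucleoside diphosphate kinase 7-like (ID evm.TU.scaffold24507.4) and adenylate kinase 7-like (ID evm.TU.scaffold56427.4), enzymes found in cilia and named here after their values were seen, which rose by 0.83 and 0.87. Other terms were cortical actin cytoskeleton (9 of 15), actin filament (13 of 23), cysteine-type endopeptidase activity in apoptosis (19 of 33), transmembrane receptor protein tyrosine kinase signalling (13 of 23) and defense response to bacterium (6 of 11), with 2 to 9, 8 to 13, 13 to 20, 8 to 13 and 3 to 6 higher over the alternatives. The kinase term held SYK-like (ID evm.TU.scaffold28689.15), a kinase of immune receptors, and the adaptor SHC1-like (ID evm.TU.scaffold3987.5), named after their values were seen, which rose by 0.66 (SE 0.11) and 0.88 (SE 0.11). GO terms with the highest share of lower genes were G protein-coupled peptide receptor activity (10 of 14), neuropeptide signaling (13 of 19), U1 snRNP (9 of 14), protein refolding (8 of 13) and protein disulfide isomerase activity (6 of 11), with 3 to 10, 4 to 13, 1 to 10, 5 to 9 and 4 to 6 lower over the alternatives. The large and small cytosolic ribosomal subunits had 26 of 44 and 17 of 31 lower, but 2 and 2 with library size scaling and 1 and 0 on log2(FPKM + 1). Luc7-like protein 3 (ID evm.TU.scaffold11121.37), named after its values were seen and part of the U1 particle that reads the start of introns, had 12.99, 19.1 and 15.9 CPM in LPS_T and 32.3, 33.1 and 33.4 CPM in PBS (-1.04, SE 0.13). The term cell body had 7 of 11 lower, most of them chaperonin subunits, so its name does not describe them.

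Called genes lay beside each other on scaffolds somewhat more often than the overall share. Among 9048 pairs of neighbouring tested genes, the next gene was higher in 22.4% of cases when the first was higher, against 18.6% over all pairs, and lower in 22.5% when the first was lower, against 15.7%. In the 169 pairs with the same description these shares were 53.6% and 44.4%, and in the pairs with different descriptions 21.9% and 22.1%. Neighbours can share reads or a source in duplication, so the pairs are not independent, and no test was run.

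Against NOR_T, the other exosome libraries, 2509 genes were called in LPS_T (21.5%), 1471 higher (12.6%) and 1038 lower (8.89%). The 2 comparisons share the LPS_T libraries, so they are given side by side only. Suppressor of cytokine signaling 2-like (ID evm.TU.scaffold15767.29) had 1523 ± 50.3 CPM in LPS_T, 376 ± 12.4 CPM in NOR_T and 260.1 ± 18.6 CPM in PBS (SD, n = 3 each), with 2.02 (SE 0.06) against NOR_T. The ETS-family factor (ID evm.TU.scaffold38105.4) had 1369 ± 65.3 CPM in LPS_T, 369.8 ± 18.8 CPM in NOR_T and 279 ± 6.05 CPM in PBS (1.89 against NOR_T). In both, NOR_T lay much nearer to PBS than to LPS_T. These genes and those given next were also named by a rule that required a difference from NOR_T. That difference was fixed by the choice. Ceramide kinase-like (ID evm.TU.scaffold63651.9), malonyl-CoA decarboxylase (ID evm.TU.scaffold64559.56), acyl-CoA synthetase family member 2 (ID evm.TU.scaffold46905.16) and cis-aconitate decarboxylase-like (ID evm.TU.scaffold64667.1) were higher in LPS_T than in NOR_T by 2.14, 2.18, 1.597 and 2.55.

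Among the genes lower in LPS_T than in PBS, the place of NOR_T varied. Chaperonin subunit theta and tomoregulin-2-like were named partly by the rule that required a difference from NOR_T. Chaperonin subunit theta (ID evm.TU.scaffold17381.1) had 186 ± 5.21 CPM in LPS_T, 279 ± 18.7 CPM in NOR_T and 629.6 ± 6.07 CPM in PBS, so most of the distance from PBS was present in NOR_T too, and LPS_T was lower than NOR_T by a further step (-0.59, SE 0.05). Calreticulin-like (ID evm.TU.scaffold42613.16) had 2034 ± 83.5 CPM in LPS_T, 3947 ± 178 CPM in NOR_T and 4910.1 ± 138 CPM in PBS, with -0.96 (SE 0.06) between LPS_T and NOR_T. TMEM205-like (ID evm.TU.scaffold8291.4) had 323 ± 10.2 CPM in LPS_T and 354 ± 12.8 CPM in NOR_T, which did not pass (adjusted p = 0.0994), against 1241 ± 77.3 CPM in PBS. Tomoregulin-2-like (ID evm.TU.scaffold58023.6), with 24.4 ± 2.45 CPM in LPS_T, 83.7 ± 8.85 CPM in NOR_T and 79.3 ± 5.26 CPM in PBS, was lower in LPS_T than in either. Of the ciliated cell markers, 59 of 86 were higher in LPS_T than in NOR_T, and NOR_T lay below PBS in the sums given above. Endoplasmic reticulum folding genes were lower in LPS_T than in NOR_T in 11 of 18, and cytosolic chaperonin genes in 8 of 8.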

How the data were processed

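Paired-end poly(A) libraries of hemocyte RNA were made with an unstranded kit, per the labels' protocols. The tools of the authors were HISAT, StringTie and edgeR, per the submitters' processing notes, which give no version; for genome build and counter, the record is: not given in the sources used here. Each gene and library has an estimated count and an FPKM, per the file headers. The deposited FPKM are fragments scaled by the authors to gene length and depth. The counts are whole numbers whose low values pile up at multiples of several counts per fragment, so they were treated as estimated (expected) counts. Overlapping genes, antisense genes and near copies are uncertain in their split of reads.

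All 9 libraries were fitted with 1 mean per group in edgeR 4.0.16 (TMM scaling, quasi-likelihood test, Benjamini-Hochberg adjustment over 11678 genes at an adjusted p under 0.05). Alternatives were DESeq2 1.42.0, limma 3.58.1 on log2(FPKM + 1) and log2(FPKM + 0.1), other scalings and filters, library weights, a replicate block and each library left out; an adjustment for counts per fragment and leaving out the 2 genes of scaffold38697 were chosen after seeing the data. R 4.3.3, pandas 2.3.3 and matplotlib 3.10.9 were used. In counts simulated at these depths, LPS_T against PBS recovered 27.3%, 65.7% and 85.1% of 66, 67 and 67 genes changed by 0.5, 1 and 2 on the log2 scale, and 3.25% of its calls were false. The rest of the 11678 genes were simulated without change, whereas 33.0% were called in the data. The false share of the simulation therefore does not carry over to these calls. Library pairs of a group differed by 2.33 to 2.88 times the sampling noise, so none was taken for a repeat deposit.

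The members and gene lists were chosen with earlier results of these data known, and genes wrongly matched to a list by their description were removed after values were seen. The text names the 20 genes of highest mean FPKM, the 8 largest changes each way per level band among called, named genes whose groups do not overlap, per list the 3 members of smallest p and the 12 terms of each annotation with the highest share each way, with exceptions; from these the genes with clear roles are described. Terms outside that rule (Phosphatidylinositol signaling, Endocytosis, Phagosome and mTOR signaling) were also chosen after their values were seen, as were the genes so marked, Otopetrin-2, maltase A1-like, the Cyp3A gene and matrix metalloproteinase-14-like. A further rule took genes called with the same sign against PBS and against NOR_T. Of these, the 8 largest LPS_T changes each way at a mean of at least 10 FPKM were named. Lists are described by counts and medians, with no test over a list.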

Additional observations from a re-analysis of the deposited data

Results flagged for a closer look

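Among the genes named above, some were called in one direction in LPS_T against PBS and in the other in NOR_T against PBS. The difference between LPS_T and NOR_T was itself called in them. Opposite calls were not confined to these genes: of 86 ciliated cell markers 56 were higher in LPS_T and 45 lower in NOR_T than in PBS. In 4 of the genes given here LPS_T was lower, a count that reflects which genes were named. The LPS_T against PBS calls of these 4 genes are lost when the deposited FPKM are tested, and those of the first 3 given also with library size scaling. Allograft inflammatory factor-1-like protein (ID evm.TU.scaffold43873.44) differed by -0.435 (log2, LPS_T minus NOR_T), with 7040.1 ± 244 CPM in LPS_T, 9517 ± 366 CPM in NOR_T and 8129 ± 372 CPM in PBS (SD, n = 3 each). Profilin-like (ID evm.TU.scaffold41425.25) differed by -0.589, with 1225 ± 90.2 CPM in LPS_T, 1843 ± 144 CPM in NOR_T and 1521 ± 146 CPM in PBS. Transcription factor AP-1-like (ID evm.TU.scaffold59345.8) differed by -0.594, with 2033 ± 69.7 CPM in LPS_T, 3069.7 ± 145 CPM in NOR_T and 2601 ± 77.9 CPM in PBS. Dual specificity phosphatase 10-like (ID evm.TU.scaffold41971.22) differed by -0.737, with 237 ± 3.47 CPM in LPS_T, 396 ± 30.7 CPM in NOR_T and 340.4 ± 30.2 CPM in PBS.

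The others given here were higher in LPS_T. A GADD45-family gene (ID evm.TU.scaffold14907.12) differed by 0.959 and TRIM62-like (ID evm.TU.scaffold52871.20) by 2.21. The testis-specific tubulin alpha chain (ID evm.TU.scaffold64139.6) differed by 1.98, with 1163 ± 80.8 CPM in LPS_T, 295 ± 14.5 CPM in NOR_T and 699 ± 79.99 CPM in PBS. Genes of cilia did the same: CFAP54 (ID evm.TU.scaffold37909.9) differed by 1.96, CCDC40 (ID evm.TU.scaffold55215.7) by 1.87, nucleoside diphosphate kinase 7-like (ID evm.TU.scaffold24507.4) by 1.85 and adenylate kinase 7-like (ID evm.TU.scaffold56427.4) by 2.11.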

How the results depend on the processing

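The number of genes lower in LPS_T than in PBS depended on scaling: 1770 in the fit reported, 908 with library size only, 584 on log2(FPKM + 1) and 530 on log2(FPKM + 0.1). The numbers higher stayed within a factor of 1.5. Against NOR_T, lower calls were 491, 356 and 303 under those settings, with 71.4% and 74.8% of all calls higher under the first and second against 58.6%; higher calls were 908 on log2(FPKM + 0.1) and 953 with a filter of 5 FPKM. Leaving out 1 library gave 1676 to 2108 higher and 1420.0 to 1838 lower calls against PBS, and 1147 to 1586 higher and 740.0 to 1513 lower calls against NOR_T. Changes of 2 genes that were not called turned sign with library size, log2(FPKM + 1) and log2(FPKM + 0.1): actin (ID evm.TU.scaffold22095.12) to 0.0089, 0.070 and 0.070, and elongation factor 1-alpha (ID evm.TU.scaffold14045.2) to 0.023, 0.085 and 0.085. The cause was not tested.

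Same-numbered libraries did not pair (correlations of deviations 0.0122, 0.00837 and 0.0227), and the fit with a replicate block called 2038 higher and 1717 lower genes against PBS and 1438 and 985 against NOR_T. Of 104 counts over gene lists, 102 stayed within a factor of 1.5 with DESeq2's size factors, 74 with library size only, 56 on log2(FPKM + 1) and 86 to 104 with 1 library left out; of 48 counts over annotation terms, 37 did so with library size only and 25 on log2(FPKM + 1). Depth limits low genes most, since PBS 1 had about 5235000 fragments.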
